A study of Mus musculus with 8 samples.

Results

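The corticosteroid receptor genes *Nr3c1* and *Nr3c2*, with 8 genes that glucocorticoid hormones induce in brain and other tissues (*Fkbp5*, *Tsc22d3*, *Plin4*, *Zbtb16*, *Cdkn1a*, *Ddit4*, *Sgk1* and *Errfi1*), were read out in bulk RNA sequencing of mouse cingulate cortex. The genes were chosen by symbol for their known role, and all 10 were found among the 53379 genes of the deposited table of raw counts and were among the 16914 with enough counts to be tested. The samples came from male mice, 4 of them *Mvp*+/+ (WT) and 4 *Mvp*-/- (Mvp KO). The labels give the treatment as none for both genotypes. The KO allele is a gene trap from a single embryonic stem cell clone, with a β-galactosidase and neomycin cassette in the first intron of *Mvp*, which encodes the major vault protein. The cingulate gyrus was microdissected from animals killed by CO2 inhalation, and the age of these mice, the hour of collection and any measure of circulating hormone were not given in the sources used here. The question asked of these genes was whether a stress-hormone state differed between the genotypes or between the samples.

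On GRCm38, *Fkbp5* lies at chr17:28399094-28517527 (minus strand), with *Cdkn1a* at chr17:29090976-29100727 and *Plin4* at chr17:56100591-56109803 on the same chromosome. *Sgk1* is at chr10:21882184-21999903 and *Ddit4* at chr10:59949669-59951834. *Tsc22d3* is at chrX:140539528-140600659, *Zbtb16* at chr9:48654297-48836222, *Errfi1* at chr4:150853919-150868892 and *Nr3c2* at chr8:76899442-77245012, while *Nr3c1* is on chromosome 18. All 10 are protein-coding genes.

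Corticosterone, the main glucocorticoid of mice, enters cells and binds the glucocorticoid receptor (GR, encoded by *Nr3c1*) or, with higher affinity, the mineralocorticoid receptor (MR, encoded by *Nr3c2*), both of which are held ready for hormone by heat shock protein 90 and its co-chaperones. The bound receptor moves to the nucleus and, as a dimer, contacts a glucocorticoid response element made of a pair of inverted arms, from which it raises transcription of genes such as *Fkbp5* and *Tsc22d3*. In brain these genes respond to stress and to the daily hormone rhythm, and they are expressed in neurons, glia and vessels alike.

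Promoter windows from RefSeq (GRCm38.p6, 300 bases around an annotated start, most of them upstream) were read to show where the letters of such an element stand in these genes. Windows were found for 8 of the 10 genes, 17 windows in all, and *Nr3c1* and *Zbtb16* had none in the table used. The palindromic letters GNACANNNTGTNC, which read the same on both strands in their fixed positions, were found in 0.475% of all 32851 windows and in 1 of the 17, a window of *Sgk1*. The single arm AGAACA, searched on both strands and in part overlapping the palindrome, was found in 19.0% of all windows and in 4 of the 17 (3 of the 6 windows of *Sgk1* and 1 of the 3 of *Tsc22d3*). Among the 15592 windows of genes tested here, the shares were 0.366% for the palindrome and 12.9% for the arm. Below are the *Sgk1* window at chr10:21993640-21993939 on the plus strand, which holds the palindrome, the *Tsc22d3* window at chrX:140600473-140600772 on the minus strand, which holds 1 arm, and the *Fkbp5* window at chr17:28486100-28486399 on the minus strand, shown because *Fkbp5* is the reference target of the set and holds neither. All are written 5′ to 3′ on the gene's strand, and capitals mark the matches.
Sgk1: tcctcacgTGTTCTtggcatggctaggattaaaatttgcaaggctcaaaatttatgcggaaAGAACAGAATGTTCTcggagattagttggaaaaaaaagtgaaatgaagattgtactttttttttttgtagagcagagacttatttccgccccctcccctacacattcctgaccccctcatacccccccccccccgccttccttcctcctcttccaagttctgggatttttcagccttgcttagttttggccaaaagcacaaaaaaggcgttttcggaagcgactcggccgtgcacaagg
Tsc22d3: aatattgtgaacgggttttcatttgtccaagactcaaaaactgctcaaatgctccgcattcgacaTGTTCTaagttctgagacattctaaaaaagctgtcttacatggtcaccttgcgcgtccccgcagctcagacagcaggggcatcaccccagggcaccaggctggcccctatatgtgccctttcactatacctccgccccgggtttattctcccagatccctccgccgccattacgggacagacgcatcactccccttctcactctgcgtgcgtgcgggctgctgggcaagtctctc
Fkbp5: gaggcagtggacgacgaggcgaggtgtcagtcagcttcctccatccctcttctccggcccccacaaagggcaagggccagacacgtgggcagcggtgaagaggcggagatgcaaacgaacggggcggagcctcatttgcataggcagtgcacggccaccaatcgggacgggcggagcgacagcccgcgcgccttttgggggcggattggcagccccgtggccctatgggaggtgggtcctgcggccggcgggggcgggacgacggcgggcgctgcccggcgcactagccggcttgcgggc
In the *Sgk1* window the palindrome began 188 bases before the start and the arms 242, 189 and 180 bases before it, the latter pair being the arms of the palindrome itself. The *Tsc22d3* arm began 185 bases before the start. A match is a run of letters and not a measured binding site, and response elements outside these windows were not searched.

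Libraries held 28456504 to 42854368 counts. Within the set *Plin4* was counted least, with 50 to 389 counts in a library, and for the other 9 genes counting error was small beside the spread between samples. The targeted gene followed the labels, as *Mvp* was at 5.49 to 7.89 CPM (counts scaled to the size of the library) in WT and 1.44 to 2.13 CPM in Mvp KO. It was the single gene of 16914 past an adjusted p of 0.05 (log2 fold change -2.06, SE 0.186, adjusted p = 0.0162, quasi-likelihood test of edgeR, Benjamini-Hochberg). One library stood apart from the rest, WT replicate 4, whose score on principal component 1 (46.0% of the variance) was 71.5 against -20.4 to -2.78 for the other 7 samples. Its immediate early genes, which neuronal firing induces, summed to 2708 CPM against 672.1 to 1731 CPM elsewhere. Its neuronal markers summed to 13090 CPM against 9992 to 11860 CPM, and its oligodendrocyte markers to 1411 CPM, below the 1645 to 6065 CPM of the others. Results that turn on this library are given with and without it. The study's methods call its replicates biological but the labels tie no sample to an animal, so p-values measure the spread between these samples.

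The receptor genes were the steadiest of the set over the 8 samples. With samples always listed by replicate number from 1 to 4, *Nr3c1* was measured at 132, 147, 131 and 102 CPM in WT and at 150, 159, 119 and 126 CPM in Mvp KO. Its lowest value was that of WT replicate 4, its highest that of Mvp KO replicate 2, and the genotypes overlapped. *Nr3c2* was at 36.9, 37.3, 34.7 and 33.5 CPM in WT and at 37.3, 42.8, 35.7 and 33.6 CPM in Mvp KO, a range of 1.28-fold from lowest to highest and the narrowest of the 10 genes, although without WT replicate 4 *Errfi1* spanned 1.27-fold. Per kilobase of exon, GR transcript was the more abundant of the 2 in every sample, with means of 16.7 ± 2.48 against 5.50 ± 0.277 RPKM (CPM divided by kilobases of exon) in WT and 18.0 ± 2.46 against 5.77 ± 0.612 RPKM in Mvp KO (SD, n = 4). The ratio of the 2 receptors was 3.02 ± 0.335 in WT and 3.12 ± 0.241 in Mvp KO (SD, n = 4), a difference within the spread between samples (exact permutation test, two-sided, p = 0.629, where the 70 arrangements allow no p below 0.0286). On this per-length scale, mean levels over the 3 WT samples other than replicate 4 were highest for *Tsc22d3* (26.7 ± 5.12 RPKM), *Ddit4* (25.7 ± 4.66), *Sgk1* (19.6 ± 5.18) and *Nr3c1* (17.8 ± 1.21), neighbours that did not differ beyond their spread (SD, n = 3). *Cdkn1a* followed at 14.0 RPKM, a mean that is 24.0 RPKM with replicate 4 included. *Zbtb16* was at 13.4 RPKM, *Errfi1* at 10.7, *Nr3c2* at 5.61, *Fkbp5* at 4.02 and *Plin4* lowest at 0.953 RPKM.

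*Fkbp5* encodes the co-chaperone FKBP51, which lowers the hormone affinity of GR and is itself induced by it. Its level was 38.9, 28, 47.3 and 39.6 CPM in WT and 20.7, 20.8, 62.0 and 45 CPM in Mvp KO. The lowest and the highest values of the series were thus both from Mvp KO samples, 3.0-fold apart, and the WT samples lay between them. The libraries at either end, Mvp KO replicates 1 and 3, had nearly equal depth, at 38173486 and 38258532 counts.

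*Tsc22d3* encodes GILZ, a leucine zipper protein that carries part of the anti-inflammatory action of glucocorticoids. It was measured at 117, 93.4, 138 and 55.0 CPM in WT and at 93.5, 71.5, 126 and 110 CPM in Mvp KO. As for *Fkbp5*, the highest samples were WT replicate 3 and Mvp KO replicate 3, but here the lowest was WT replicate 4. *Plin4*, which encodes perilipin 4, a coat protein of lipid droplets, was at 3.54, 1.77, 11.2 and 2.67 CPM in WT and at 1.80, 1.39, 9.47 and 6.81 CPM in Mvp KO. It spanned 8.08-fold, and 3 samples (WT replicate 3 and Mvp KO replicates 3 and 4) stood above the other 5.

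*Zbtb16* encodes the zinc finger repressor PLZF. Its 4 WT values were 69.7, 62.4, 79.5 and 124 CPM and its 4 Mvp KO values 30.5, 45.6, 93.0 and 82.9 CPM. *Cdkn1a* encodes p21, the inhibitor of cyclin-dependent kinases. It was at 48.7, 48.6, 52.2 and 191 CPM in WT and at 35.0, 25.5, 59.5 and 55.0 CPM in Mvp KO. In both genes WT replicate 4 was the highest sample and Mvp KO replicates 1 and 2 the lowest. Without WT replicate 4, *Cdkn1a* spanned 2.34-fold in place of 7.49-fold, and the 3 remaining WT samples were at 49.9 ± 2.01 CPM (SD, n = 3).

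*Ddit4* encodes REDD1, an inhibitor of mTORC1. It was at 44.9, 37.0, 53.4 and 21.7 CPM in WT and at 43.9, 28.3, 46.5 and 37.2 CPM in Mvp KO. The kinase gene *Sgk1*, a target of both receptors, was at 89.4, 75.0, 124 and 146 CPM in WT and at 126, 71.8, 109 and 92.1 CPM in Mvp KO. *Errfi1* encodes MIG6, a feedback inhibitor of the EGF receptor. It was at 37.2, 37.3, 40.9 and 85.6 CPM in WT and at 46.0, 39.2, 37.4 and 36.1 CPM in Mvp KO. These 3 genes put the samples in another order than *Fkbp5* did, with Mvp KO replicate 1, the lowest sample for *Fkbp5*, at the highest level of *Sgk1* and *Errfi1* among the 7 samples other than WT replicate 4.

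WT replicate 4 did not hold the set as a whole up or down. Relative to the median of the other 7 samples it was at 3.91-fold for *Cdkn1a*, 2.29-fold for *Errfi1*, 1.78-fold for *Zbtb16* and 1.59-fold for *Sgk1*. By the same measure it was at 1.02-fold for *Fkbp5*, 0.754-fold for *Plin4*, 0.500-fold for *Tsc22d3* and 0.494-fold for *Ddit4*. It was the highest of the 8 samples for 4 of the 10 genes and the lowest for another 4, both receptors among the latter. Of the 12 immediate early genes, 10 were at their highest in the same library. *Npas4* was at 465 CPM there against 23.0 to 115 CPM elsewhere, whereas *Fos*, at 153 CPM, was close to the 147 CPM of Mvp KO replicate 2. The part of neuronal activity in these values was not tested.

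**Figure D1:**
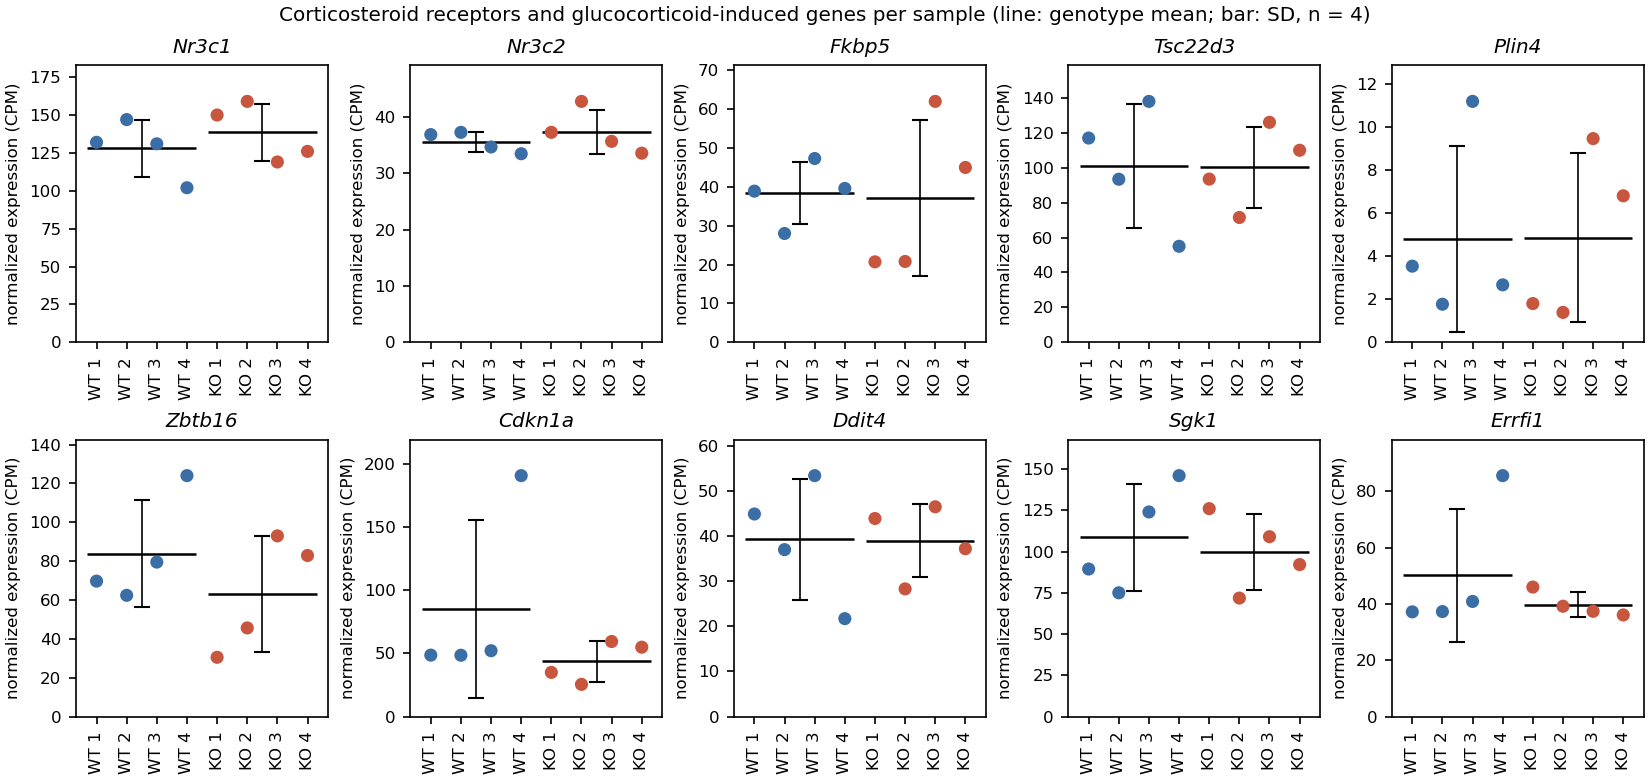
Normalized expression (CPM, vertical axes from 0) of the 2 receptor genes and 8 glucocorticoid-induced genes in each of the 4 WT (blue) and 4 Mvp KO (red) samples, with a line at the genotype mean and a bar for the SD (n = 4). *Plin4* is spread widely in both genotypes, *Fkbp5* has an SD of 20.2 CPM in Mvp KO and 7.95 CPM in WT, *Nr3c2* stays between 33.5 and 42.8 CPM, and WT replicate 4 is far from the other WT samples for *Cdkn1a* (191 CPM) and *Errfi1* (85.6 CPM).

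Between the genotypes, none of the 10 genes differed by more than the spread between samples. The count past an adjusted p of 0.05 was 0 of 10 (quasi-likelihood test of edgeR, Benjamini-Hochberg over 16914 genes, lowest adjusted p = 0.969), beside 0.00591% of all genes tested. At an unadjusted p under 0.05 it was also 0 of 10, beside 1.56% of all genes. The DESeq2 Wald test gave 0 of 10 by either threshold as well, beside 2 (adjusted) and 360 (unadjusted) of 30700 genes. Limma voom, with a quality weight for each sample, also gave 0 of 10 by either, beside 2 and 550 of 16914 genes. With the replicate number as a block in the edgeR fit, 1 of 10 (*Cdkn1a*) was at an unadjusted p under 0.05, beside 1.94% of all genes, and 0 of 10 passed the adjusted threshold. In 0 of the 10 genes did the 4 WT values lie apart from the 4 Mvp KO values, beside 1.52% of all genes. The median log2 fold change of the 10 genes was -0.03, with 3 higher and 7 lower in Mvp KO, beside a median of 0.00 over all genes.

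How large a difference these samples leave possible depended on the gene. For *Nr3c1* the mean was 128 ± 19.1 CPM in WT and 138 ± 18.9 CPM in Mvp KO (SD, n = 4), which is 0.11 on the log2 scale (95% interval -0.18 to 0.40). For *Nr3c2* the log2 difference was 0.07 (-0.12 to 0.26). These were the 2 of the 10 genes whose whole interval lay within a 1.5-fold change, and 7 of the 10 lay within a 2-fold change. *Fkbp5* was at 38.5 ± 7.95 CPM in WT and 37.1 ± 20.2 CPM in Mvp KO (SD, n = 4), a fold of 0.965 with an interval from 0.559 to 1.67. For *Tsc22d3*, *Ddit4* and *Sgk1* the folds were 0.994 (0.655 to 1.51), 0.994 (0.666 to 1.48) and 0.919 (0.642 to 1.32). For *Plin4* the interval ran from 0.329-fold to 3.12-fold, so that a 3-fold change in either direction could not be told from none.

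The largest difference was in *Cdkn1a*, with -0.96 on the log2 scale (SE 0.489, 95% interval -2.06 to 0.14, adjusted p = 0.969, quasi-likelihood test of edgeR, Benjamini-Hochberg). Without WT replicate 4 it was -0.19 (-0.84 to 0.47). The next, *Zbtb16* at -0.41 and *Errfi1* at -0.34, were -0.16 and 0.05 without that library. Leaving it out also moved *Tsc22d3* from -0.01 to -0.21, *Ddit4* from -0.01 to -0.20, *Sgk1* from -0.12 to 0.06 and *Nr3c1* from 0.11 to 0.02 on the log2 scale. The adjusted p was then 1.0 for each of the 10 genes by the same edgeR test, beside 0.00583% of all genes called without that library.

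**Figure D2:**
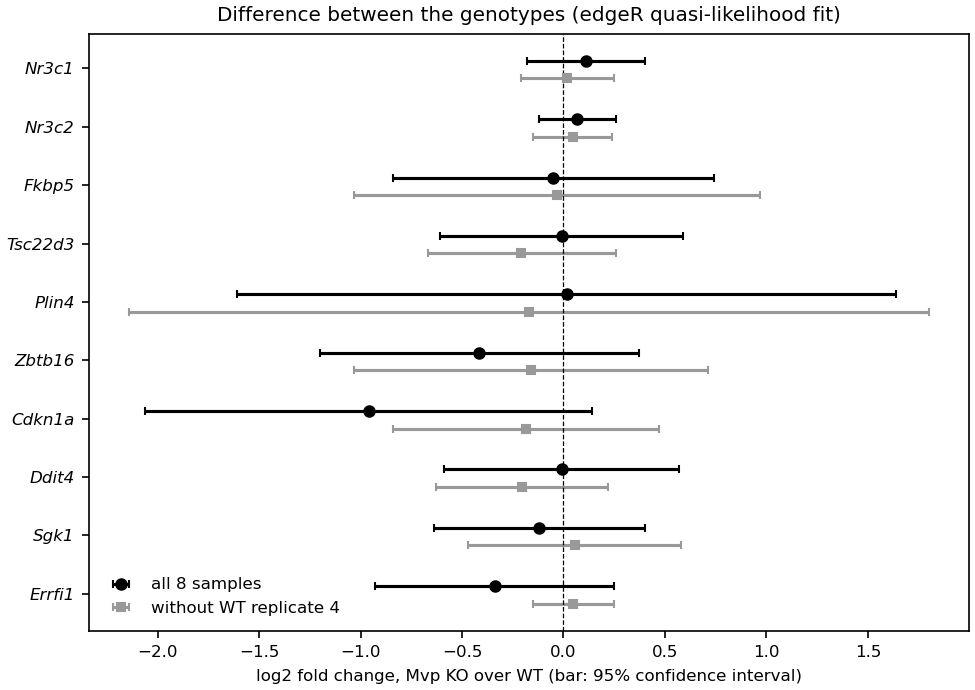
Log2 fold change of each gene, Mvp KO over WT, from edgeR's quasi-likelihood fit to all 8 samples (black) and without WT replicate 4 (grey), with 95% confidence intervals as bars and a dashed line at 0. Every interval crosses 0, the intervals of *Nr3c1* and *Nr3c2* are the narrowest with all 8 samples, and that of *Plin4* is the widest.

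The same comparison was made for 30 other genes known to be induced by glucocorticoids. Of these, 29 were tested (*Lcn2*, under 1 CPM in every sample, was not), and 0 passed an adjusted p of 0.05, with 10 higher and 19 lower in Mvp KO and a median log2 fold change of -0.08. The 3 of smallest p were *Mt1* (log2 fold change -0.24), *Mt2* (-0.23) and *Dusp1* (0.61), each at an adjusted p = 0.969 in edgeR's test. *Mt1* and *Mt2* encode metallothioneins, and *Dusp1* a phosphatase of MAP kinases that neuronal activity also induces. *Mt1* was the 1 gene of the 29 at an unadjusted p under 0.05, beside 1.56% of all genes. Without WT replicate 4 the count was 3 of 29, beside 230 of 17159 genes. Without WT replicate 2 it was 0 of 29, beside 336 of 17075 genes. *Klf9*, *Fam107a* and *Rhob* had the highest mean CPM of the list, with log2 fold changes of -0.32, -0.26 and 0.00. *Klf9* was at 334 CPM in WT replicate 4 and at 127 to 225 CPM in the others, and without that library the 3 values were -0.05, -0.24 and 0.06. *Per1*, a clock gene with a glucocorticoid response of its own, was at 81.5 to 121 CPM with a log2 fold change of 0.06, and the NF-kappaB inhibitor gene *Nfkbia* at 14.0 to 32.1 CPM with 0.10, or -0.07 without WT replicate 4.

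Genes that make, carry or answer the hormone and its receptors gave no call between the genotypes either. Of 27 such genes, 26 were tested, 0 passed an adjusted p of 0.05, 13 were higher and 13 lower, and the median log2 fold change was 0.00. *Hsd11b1*, which encodes the enzyme that regenerates active corticosterone from its inert form, was at 8.40, 14.6, 12.3 and 9.27 CPM in WT and at 12, 20.8, 10.7 and 8.25 CPM in Mvp KO. *Hsd11b2*, whose enzyme inactivates corticosterone and so shields MR in kidney, had 4 counts over the 8 samples together and was not tested. A count of 0 in a library allows up to 3 counts of its total, and this covers counting error only. *Fkbp4*, which encodes FKBP52, the co-chaperone that favours hormone binding, differed by 0.02 on the log2 scale (95% interval -0.14 to 0.18) and *Crh*, the stress neuropeptide gene, by -0.31 (-0.74 to 0.13), or -0.18 without WT replicate 4. The 3 of smallest p were *Crhbp*, the binding protein of CRH (-0.89), and the chaperone genes *Hspa8* (-0.19) and *Hsp90aa1* (-0.25), each at an adjusted p = 0.969 in edgeR's test. *Crhbp* was the 1 gene of the 26 at an unadjusted p under 0.05, beside 1.56% of all genes. *Crhbp* was at 83.8 CPM in WT replicate 4 and at 21.2 to 26.9 CPM in the other 7 samples. Without that library the log2 fold changes of *Crhbp*, *Hspa8* and *Hsp90aa1* were -0.23, -0.11 and -0.10.

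The samples were put in order by the mean level of the 8 induced genes, and this order crossed the genotypes. The mean level of the 8 induced genes, taken as the average of their log2 deviations from each gene's own mean over the 8 samples, stood at 0.02, -0.29, 0.43 and 0.29 for the WT samples and at -0.37, -0.66, 0.42 and 0.17 for the Mvp KO samples. From lowest to highest the order was Mvp KO 2, Mvp KO 1, WT 2, WT 1, Mvp KO 4, WT 4, Mvp KO 3 and WT 3, so that the 2 lowest samples were Mvp KO and the 2 highest were 1 of each genotype. The genotype means were 0.11 ± 0.319 in WT and -0.11 ± 0.491 in Mvp KO (SD, n = 4), each SD being larger than the difference of -0.22, and WT without replicate 4 was at 0.05 ± 0.363 (SD, n = 3). WT replicate 3 was among the 4 highest samples for all 8 induced genes, Mvp KO replicate 3 for 7 of 8 and WT replicate 2 for 0 of 8. With the 8 genes scaled to the same spread, an alternative added after the values were seen, WT 2 and Mvp KO 1 changed places and the rest of the order was the same. The 8 genes make up this mean level, so some likeness to it is built in. Over the 7 samples other than WT replicate 4, *Errfi1* had r = -0.299 and *Sgk1* r = 0.566 with it. For the rest of the induced genes r was 0.776 to 0.976.

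The spread within genotypes was wide for most of the induced genes and not for the receptors. Ranked by within-genotype SD of log2 CPM among all genes tested, *Plin4* was at percentile 99.6, *Cdkn1a* at 97.1, *Zbtb16* at 93.2 and *Fkbp5* at 93.0. The other 4 induced genes were at percentiles 80.7 to 87.2, *Nr3c1* at 53.1 and *Nr3c2* at 23.2. Without WT replicate 4, *Plin4*, *Fkbp5* and *Zbtb16* were at percentiles 99.9, 97.1 and 95.6, whereas *Errfi1* went from 83.3 to 42.5.

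**Figure D3:**
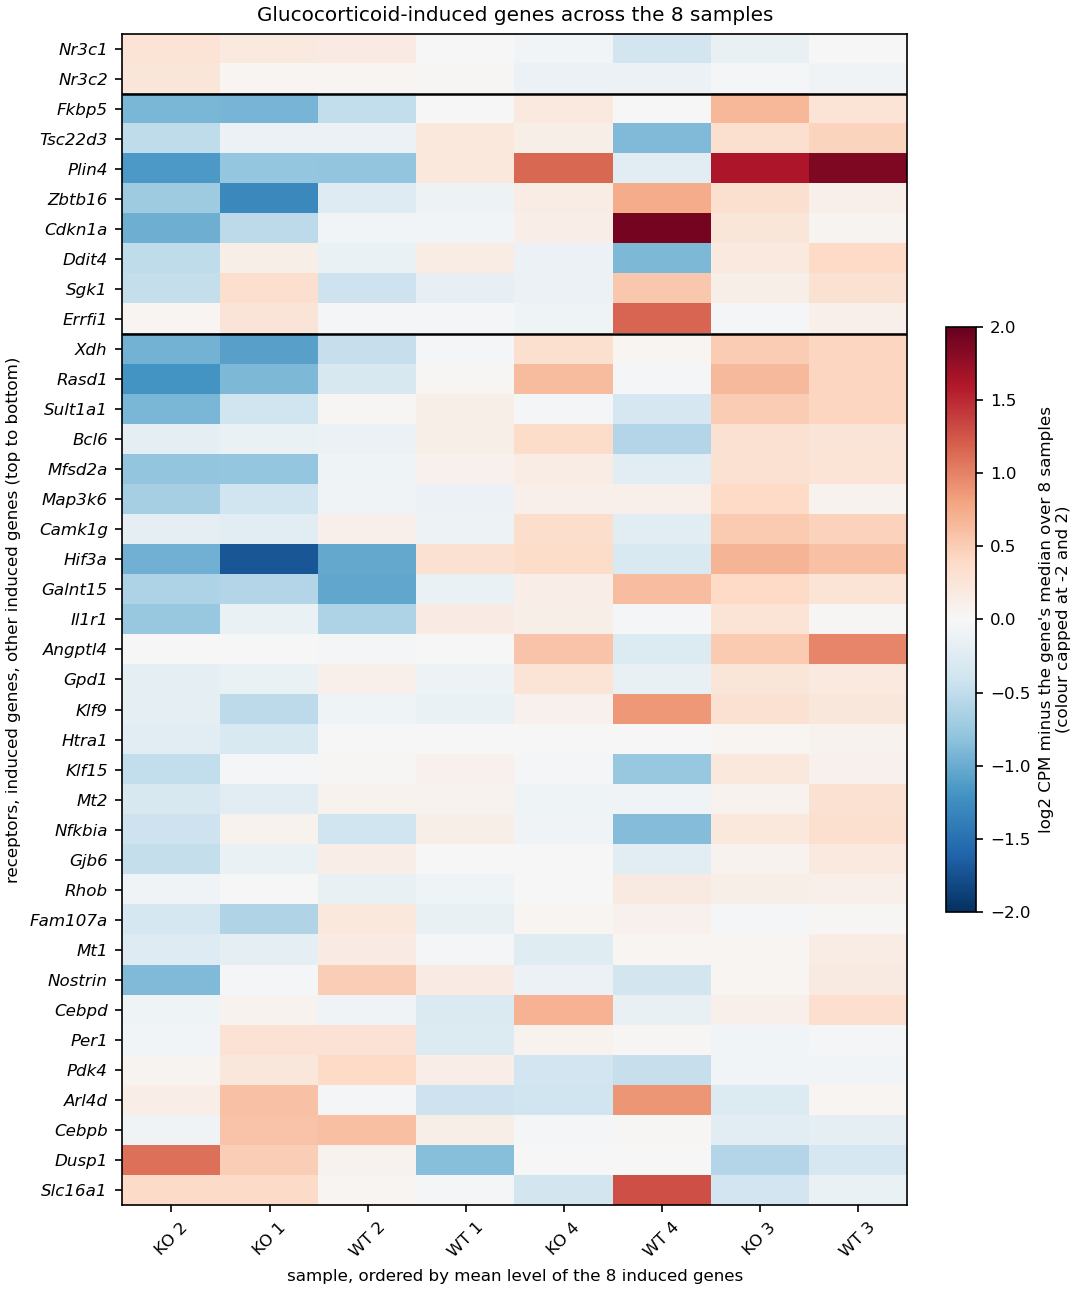
Log2 CPM of each gene relative to its median over the 8 samples (colour, capped at -2 and 2), for the receptors (top), the 8 induced genes (middle) and the 29 other induced genes tested (bottom, ordered by correlation with the mean level of the 8). Columns are samples ordered by that mean level, which the 8 induced genes themselves set. Most rows run from blue at Mvp KO 2 and Mvp KO 1 to red at Mvp KO 3 and WT 3, with WT 4 out of the order in many of them.

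To ask whether the genes moved together over samples, each of the 45 pairs was correlated over the 7 samples other than WT replicate 4, on log2 CPM. Of the 45 pairs, 15 passed an adjusted p of 0.05 for Pearson's r (exact permutation tests over every order of the samples, two-sided, Benjamini-Hochberg over the 45 pairs) and 8 passed for Spearman's rho. Among the 28 pairs of induced genes, 22 were positive, the median r was 0.652, and 10 (35.7%) had r over 0.8, beside 2.93% of all pairs of genes tested. These genes share their libraries, scaling and tissue pieces, and with all 8 samples the median r of the 28 pairs was 0.352. *Fkbp5* and *Zbtb16* had r = 0.922 (rho = 0.964, permutation p = 0.000595 and 0.00278, adjusted p = 0.0134 and 0.0208), r = 0.972 without the 2 samples farthest from the median of *Fkbp5*, and r = 0.825 with all 8. *Fkbp5* and *Plin4* had r = 0.936 (rho = 0.857, permutation p = 0.00615 and 0.0238, adjusted p = 0.0416 and 0.0669), 0.908 without the 2 farthest samples and 0.901 with all 8. *Tsc22d3* and *Ddit4* had r = 0.896 (rho = 0.964, permutation p = 0.00694 and 0.00278, adjusted p = 0.0416 and 0.0208) and 0.954 with all 8 samples. For that last pair r was 0.521 without the 2 samples farthest from the median of *Tsc22d3*.

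*Nr3c1* ran the other way. By Pearson's r it was negatively correlated with 5 of the 8 induced genes at an adjusted p under 0.05. By Spearman's rho, *Fkbp5*, *Zbtb16* and *Cdkn1a* passed that threshold in the permutation tests, and *Tsc22d3* and *Plin4* did not. *Nr3c1* had r = -0.914 with *Plin4* over the 7 samples and -0.498 with all 8. With *Fkbp5* it had r = -0.973 over the 7 samples (rho = -0.929, permutation p = 0.00119 and 0.00675, adjusted p = 0.0156 and 0.0380), -0.972 without the 2 samples farthest from the median of *Nr3c1* and -0.740 with all 8. With *Cdkn1a* it had r = -0.884 (rho = -1.0, permutation p = 0.000198 and 0.000397, the smallest that these orders can give, adjusted p = 0.00891 and 0.0179), -0.876 without the 2 farthest samples and -0.932 with all 8. The range of *Nr3c1* itself was narrow, 1.34-fold over the 7 samples, against 3.0-fold for *Fkbp5*. The negative relation of *Nr3c1* with *Tsc22d3* (r = -0.875 over 7 samples, rho = -0.786, permutation p = 0.0101 and 0.0480, adjusted p = 0.0416 and 0.103) was 0.149 with WT replicate 4 included, where both genes were at their lowest. *Nr3c2* was negatively correlated with *Cdkn1a* and *Plin4* at an adjusted p under 0.05 for Pearson's r (-0.889 and -0.785). Neither pair passed for Spearman's rho (permutation tests, adjusted p = 0.0503 and 0.0669), and with all 8 samples r was -0.751 and -0.640. *Sgk1* and *Errfi1* took part in 0 of the 15 pairs. With the genotype means taken out, an alternative added after the values were seen, r was -0.980 for *Nr3c1* with *Fkbp5* and 0.927 for *Fkbp5* with *Zbtb16*.

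**Figure D4:**
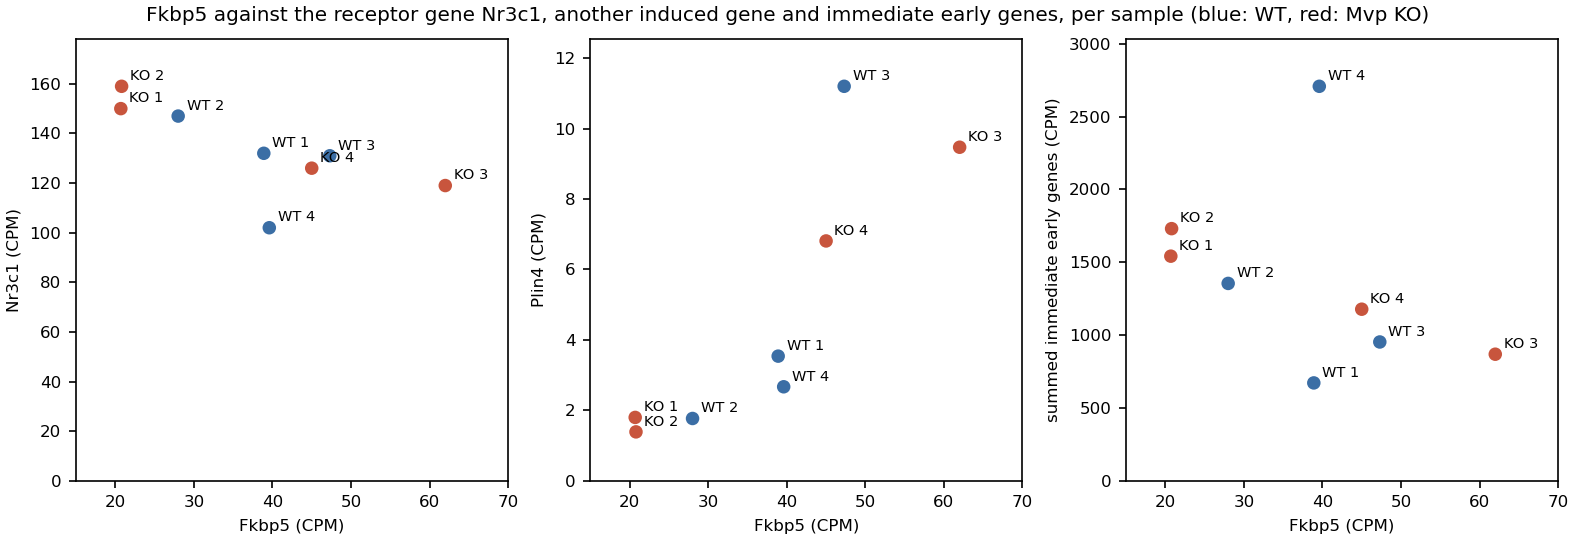
Levels of *Nr3c1* (left), *Plin4* (middle) and 12 immediate early genes summed (right), all in CPM, against *Fkbp5* (horizontal axis, CPM, starting at 15) in each of the 4 WT (blue) and 4 Mvp KO (red) samples. *Nr3c1* falls from 159 to 119 CPM and *Plin4* goes up as *Fkbp5* goes from 20.8 to 62.0 CPM, with samples of both genotypes along the run and WT 4 below it for *Nr3c1* and far above it for the early genes.

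The other induced genes, which had no part in the mean level of the 8, were compared with it over the 7 samples. Of the 29 tested, 15 (51.7%) had r over 0.8 with that mean level, beside 5.2% of all genes tested, and their median r was 0.80. Examples, chosen after their values were seen, are the xanthine dehydrogenase gene *Xdh* (r = 0.952), *Rasd1*, first described as a dexamethasone-induced Ras gene (0.950), the lipid transporter gene *Mfsd2a* of brain endothelium (0.914) and *Hif3a* (0.879). *Hif3a*, a member of the hypoxia-inducible factor family, was at 15.5, 6.17, 18.7 and 10.1 CPM in WT and at 3.82, 6.46, 20 and 16.1 CPM in Mvp KO. *Xdh* was at 10, 7.44, 13.9 and 10.6 CPM in WT and at 4.86, 5.33, 14.7 and 12.9 CPM in Mvp KO. Both put WT replicate 3 and Mvp KO replicates 3 and 4 at the top of the 7, as *Fkbp5* and *Plin4* did. Not all of the list ran this way. *Dusp1* (r = -0.805) and the lactate transporter gene *Slc16a1* (-0.882) were below -0.8, and *Per1* (-0.337), *Pdk4* (-0.525), *Arl4d* (-0.546) and *Cebpb* (-0.569) were the other negative ones. *Klf9* had r = 0.808 and *Nfkbia* 0.797.

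Of the receptor pathway genes, 1 of 26 (3.85%) had r over 0.8 with the mean level, beside 5.2% of all genes tested. That gene was *Hsp90ab1* (0.972), one of the genes for the chaperone that holds the receptors. It varied by little, from 1410 to 1620 CPM over the 7 samples. The pathway genes ran from r = -0.78 (*Fkbp4*) to 0.972, with a median of 0.069. Of 14 clock genes 2 (14.3%) had r over 0.8, *Tef* (0.931) and *Dbp* (0.837). The median over the clock genes was 0.097, and their summed level was between 1630 and 1791 CPM in the 7 samples. Also over 0.8 were 1 of 9 neuronal markers, *Slc17a7* (0.954), and 1 of 10 endothelial markers, *Ly6c1* (0.906). Median r was 0.178 for neuronal and -0.76 for endothelial markers, and -0.73 for immediate early genes. For oligodendrocyte, microglial and astrocyte markers it was -0.611, -0.376 and -0.057. Outside all of the lists, the genes closest to the mean level were *Mthfd1l* (r = 0.989 over 7 samples), *Gm1141* (0.988), *Gas7* (0.985), *Tada2b* (0.983) and *Ucp2* (0.982). *Tada2b* varied by little, from 32.5 to 34.9 CPM over those samples, and *Ucp2*, which encodes a mitochondrial carrier, from 10.3 to 25.1 CPM.

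The summed levels of 9 marker lists were set beside *Fkbp5*. Over the 7 samples *Fkbp5* correlated with the summed oligodendrocyte markers at r = -0.771 (rho = -0.607, permutation p = 0.0472 and 0.167, adjusted p of r 0.142 over 9 lists), with endothelial markers at -0.787 (rho = -0.821, permutation p = 0.0413 and 0.0341, adjusted p of r 0.142) and with immediate early genes at -0.804 (rho = -0.750, permutation p = 0.0339 and 0.0663, adjusted p of r 0.142). Without the 2 farthest samples these were -0.171, -0.934 and -0.409. Neuronal markers ran the same way as *Fkbp5*, at r = 0.597 (rho = 0.821, permutation p = 0.163 and 0.0341, adjusted p of r 0.293), and r was 0.433 without the 2 farthest samples. Astrocyte markers had r = -0.595 and microglial markers -0.325, and -0.849 and -0.951 without the 2 farthest samples. For the striatal, clock and red cell lists r was 0.548, 0.383 and -0.229. None of the 9 lists passed the adjusted threshold by r. Taking out the genotype means, an alternative added after the values were seen, gave r = -0.976 for endothelial markers and -0.868 for early genes. For astrocyte, oligodendrocyte and microglial markers it was -0.784, -0.767 and -0.572. The striatal, neuronal, clock and red cell lists had 0.684, 0.593, 0.378 and -0.32. All 10 oligodendrocyte markers were detected in every sample, and their sum was 6065 and 4154 CPM in Mvp KO replicates 1 and 2, the samples lowest for *Fkbp5*, against 1645 to 3014 CPM in the other 5. The 10 endothelial markers summed to 259.5, 273.1 and 326.4 CPM in WT replicates 3, 1 and 2 and to 227.7 to 301.8 CPM in Mvp KO, and the 10 astrocyte markers to 5046 to 6248 CPM over the 7 samples. Early genes summed to 1542 and 1731 CPM in Mvp KO replicates 1 and 2 and to 869.1 CPM in Mvp KO replicate 3. The part of cell composition or of neuronal activity in the run of the induced genes was not tested, and in bulk tissue fewer cells of a type and less RNA per cell cannot be told apart. Haemoglobin and other red cell genes summed to 24.88 to 57.10 CPM and choroid plexus markers to 1.973 to 5.475 CPM in the 7 samples.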

How the data were processed

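Cingulate cortex of male mice, in 4 WT and 4 Mvp KO samples, was profiled by polyA-selected, stranded, single-end RNA sequencing. Per the paper's methods and the submitters' processing notes, the authors trimmed reads with cutadapt 1.10, removed unwanted reads with Bowtie2 2.2.8, mapped the rest to mm10 with STAR 2.5.3a, counted them on Ensembl genes with HTSeq 0.6.1p1 and deposited raw counts per gene. The counting mode and strand setting were not given in the sources used here. No exon of the 10 genes overlaps another gene on the same strand. On the opposite strand, other genes share 7.684% of the exonic bases of *Cdkn1a*, 3.815% of those of *Nr3c2* and 0.294% of those of *Plin4*.

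Symbols came from GENCODE vM21 (GRCm38), which holds 53274 of the 53379 identifiers. Counts were fitted in R 4.3.3 with edgeR 4.0.16 (filterByExpr with minimum count 10 and total 15, TMM scaling, robust quasi-likelihood test, genotype as the single term, Benjamini-Hochberg adjustment over 16914 genes, threshold 0.05). CPM are TMM-scaled, log2 CPM have a prior count of 2, and RPKM divide by exonic length. Alternatives were DESeq2 1.42.0's size factors and Wald test, limma 3.58.1 voom, other filters, non-robust dispersions, a replicate block and leaving out each sample. Voom was run with a quality weight estimated for each sample, so its samples did not count equally. Simulated counts, with 200 genes changed by known folds, served to test the fits. Correlations used SciPy 1.17.1.

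The genes, lists and tests were chosen with earlier results of these data known. Named genes were the 10, the 3 of smallest p and the 3 most abundant of the lists, some set receptor pathway and early genes, and the 5 outside genes closest to the mean level.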

Additional observations from a re-analysis of the deposited data

Results flagged for a closer look

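In 24 groups of 4 values (the 10 genes, the receptor ratio and the mean level, in each genotype), the highest or lowest sample was compared with the rest by Dixon's ratio at its 95% critical value, where chance alone gives about 1.2 groups past it. A sample far from the others was found in 2 groups, both through WT replicate 4. *Cdkn1a* was at 191 CPM in that sample while the other 3 WT samples had 48.6 to 52.2 CPM (Dixon's ratio 0.98), and *Errfi1* was at 85.6 CPM against 37.2 to 40.9 CPM (ratio 0.92). Of the 12 immediate early genes, 10 were at their highest in that library, and the part of neuronal activity was not tested.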

How the results depend on the processing

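With 4 samples per genotype and several induced genes that vary by 2-fold or more within a genotype, moderate differences in them could not be resolved, and *Plin4* is further limited by its low counts. Of 261 values under alternatives for 19 results, 221 kept their direction or size. A value that kept its direction could still change much in size. Among these, *Plin4* went from 0.019 to 0.869 without WT replicate 3. The median r over the pairs of induced genes went from 0.652 to 0.352 with all 8 samples. The count of these 10 genes past the threshold was 0 under every alternative run. Over all genes, DESeq2's Wald test and limma voom each called 2 genes (*Mvp* and *Bc1*) and the replicate block called 0, while leaving out 1 sample at a time gave 0 to 1. The median log2 fold change lay between -0.246 and 0.057 for the 10 genes, -0.182 and 0.023 for the other induced genes and -0.026 and 0.008 for the pathway genes when 1 sample was left out. It was above 0 for the 10 genes without WT replicate 3 (0.057) or Mvp KO replicate 2 (0.019).

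Directions turned as follows, and the cause was not tested. Limma voom, run with an estimated quality weight for each sample, gave -0.047 for *Nr3c1*, 0.093 for *Fkbp5* and -0.007 for *Plin4*. *Cdkn1a* and *Zbtb16* kept their direction in that weighted fit, at -0.119 and -0.063. In the edgeR fit without WT replicate 4 they were at -0.186 and -0.161. The replicate block gave 0.031 for *Tsc22d3*, -0.054 for *Plin4* and 0.033 for *Ddit4*, and 1 of the 10 genes, *Cdkn1a* at -0.753, had an unadjusted p under 0.05, beside 1.94% of all genes in that fit. Leaving out 1 sample gave -0.006 to 0.115 for *Nr3c2*, -0.418 to 0.150 for *Fkbp5*, -0.269 to 0.058 for *Sgk1*, -0.207 to 0.179 for *Tsc22d3*, -0.534 to 0.869 for *Plin4*, -0.204 to 0.173 for *Ddit4* and -0.467 to 0.048 for *Errfi1*. Deviations of same-numbered samples from their genotype means correlated at 0.0548, 0.287, -0.00671 and 0.0507 for numbers 1 to 4. Whether the numbers pair the samples was not tested.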
